A study of Mus musculus with 39 samples.

Results

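The endoplasmic reticulum stress genes described here are 9 genes, Ddit3, Atf4, Xbp1, Hspa5, Trib3, Asns, Chac1, Herpud1 and Dnajb9, which were found on the array by their gene names and not by their values. They were measured by 12 probes, of 40628 probes and 29411 gene names on the array. Dnajb9 had 3 probes, Trib3 had 2 and the other members had 1 each, with 1 spot per probe on every array. Total RNA of subcutaneous adipose tissue from C57BL/6J mice was hybridised to 39 Agilent 1-colour arrays. The mice were weaned at 3 to 4 weeks of age and fed a low-fat control diet with 10% of calories from fat (LFC, 10 arrays) or a diet high in fat and sucrose with 60% of calories from fat (HFC, 11 arrays). Other mice ate the HFC diet supplemented with the botanical KAL-1, at a dose of 5 µg in the group HF5, 20 µg in HF20 and 75 µg in HF75, and each of these groups had 6 arrays. LFC and HFC were measured at Day 6, Day 10, Day 14 and Week 0 and then every 3 weeks from Week 3 to Week 18, HFC alone also at Day 1, and the KAL-1 diets at those 6 weeks.

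There was 1 array for every diet and labelled time. The methods, written for liver, count the weeks from Day 14, by which Day 14 and Week 0 are the same time. They were kept as separate time points here, and with either left out 0 of 9 members passed between HFC and LFC, over all time points or late against early, in limma. The series description speaks of 3 biological replicates, but the labels do not give how many mice an array stands for, so n counts arrays. The spread behind a comparison of diets is that of its difference over the time points, and the value of any 1 time point is without replicates. A level is the log2 intensity of a probe minus the log2 of the 75th percentile of its array, so a level of 0 is that percentile. Levels of different probes are not set against each other, because probes differ in how brightly they hybridise.

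Proteins that fold badly in the endoplasmic reticulum set off the unfolded protein response, which runs through the membrane sensors Perk, Ire1 and Atf6. Perk phosphorylates eIF2alpha, which lowers translation in general but raises that of Atf4, and Atf4 induces Ddit3 (CHOP), Trib3, Asns and Chac1. Ire1 splices the Xbp1 mRNA into the form that encodes an active transcription factor, and Xbp1 and Atf6 induce chaperones and degradation factors such as Hspa5 (BiP), Dnajb9 (ERdj4) and Herpud1. The Xbp1 probe gives the level of the transcript and not the share that is spliced. In adipose tissue this response has been studied for its links with obesity, insulin resistance and the secretory load of the adipocyte.

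The promoters of these genes are where the transcription factors of the response act, so the 250 bases before the RefSeq start of each of the 9 members (all 9 matched by symbol, build GRCm38.p6) were searched on both strands for 4 sequence motifs. These were the endoplasmic reticulum stress element (CCAAT and CCACG with any 9 bases between them), its compact form (ATTGG and CCACG with any 1 base between them), the Xbp1 element TGACGTGG and the C/EBP-ATF composite element TGATGNAA bound by Atf4 and Ddit3. The 4 promoters that held a match are printed 5′ to 3′ on the strand of the gene, with the match in capitals, to show which members carry which element. They lie at chr2:34771840-34772089 (plus strand) for Hspa5, chr8:94386179-94386428 (plus strand) for Herpud1, chr2:119350992-119351241 (plus strand) for Chac1 and chr6:7693210-7693459 (minus strand) for Asns, directly before each gene's start.
Hspa5: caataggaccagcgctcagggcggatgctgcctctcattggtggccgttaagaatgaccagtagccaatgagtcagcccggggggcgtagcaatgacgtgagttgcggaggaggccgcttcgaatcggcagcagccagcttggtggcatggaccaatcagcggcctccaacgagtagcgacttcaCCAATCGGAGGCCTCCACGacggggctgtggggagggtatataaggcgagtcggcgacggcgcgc
Herpud1: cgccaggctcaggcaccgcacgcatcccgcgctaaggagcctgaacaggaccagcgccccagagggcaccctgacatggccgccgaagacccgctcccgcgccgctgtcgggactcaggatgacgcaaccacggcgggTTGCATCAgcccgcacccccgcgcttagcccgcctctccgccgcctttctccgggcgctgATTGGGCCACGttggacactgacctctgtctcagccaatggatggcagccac
Chac1: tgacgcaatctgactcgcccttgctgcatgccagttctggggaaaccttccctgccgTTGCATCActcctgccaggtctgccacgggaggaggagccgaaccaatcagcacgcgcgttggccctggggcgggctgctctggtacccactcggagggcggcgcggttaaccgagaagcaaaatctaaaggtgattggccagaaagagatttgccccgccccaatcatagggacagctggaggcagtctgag
Asns: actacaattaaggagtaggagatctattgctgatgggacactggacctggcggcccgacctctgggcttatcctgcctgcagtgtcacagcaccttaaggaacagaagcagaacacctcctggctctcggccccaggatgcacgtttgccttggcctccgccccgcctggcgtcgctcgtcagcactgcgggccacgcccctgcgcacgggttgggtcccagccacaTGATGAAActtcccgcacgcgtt

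The Hspa5 promoter held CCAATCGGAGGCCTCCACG, which began 65 bases before the start, an element found in 37 of 32851 promoters (0.113%). The Herpud1 promoter held the compact form, ATTGGGCCACG, which began 52 bases before the start and was held by 10 promoters (0.0304%), and the composite element on the opposite strand (TTGCATCA), which began 112 bases before it. The Chac1 promoter held the composite element on the opposite strand too, 193 bases before the start, and the Asns promoter held it as TGATGAAA, 23 bases before the start. The composite element was in 1134 promoters (3.45%). The Xbp1 element was in 185 promoters (0.563%) and in none of the 9 members' windows. The windows of Ddit3, Atf4, Xbp1, Trib3 and Dnajb9 held no match to these letters. A match is a description of the letters and was not tested as a binding site here.

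The arrays had 49.3% to 87.8% of their spots well above background, and the 75th percentile of the intensity lay between 107.9 and 1285. All 12 probes were well above background on all 39 arrays, except the dimmer Trib3 probe, which was so on 38. The Hspa5 spot was saturated on 9 arrays (HFC at Day 14 and Week 12, LFC at Weeks 0, 6 and 15, HF5 at Weeks 6, 15 and 18, HF75 at Week 12), so high Hspa5 levels there may be too low. The adipocyte markers Adipoq, Plin1, Lipe, Lpl, Fabp4, Cidec, Pparg and Cd36 were all detected, with a mean level from 2.42 to 5.73. Week 12 arrays of HF5 and HF20 each matched the other's column in the deposited table (r = 0.999, against 0.664 and 0.665 for their own). The dose comparisons of the members and the counts over all genes were therefore also computed with these exchanged. The counts of the lists of other pathway genes were not.

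Before the diets are compared, 6 arrays stood apart, as shown in the plot of the 9 genes against immediate early genes. They are HFC at Day 1, Day 6 and Day 10, LFC at Day 6 and Week 12, and HF75 at Week 3. Their mean over 8 immediate early genes (Fos, Fosb, Jun, Junb, Egr1, Egr2, Ier2, Nr4a1) lay between -0.56 and 0.16, against 4.18 to 5.57 on the other 33 arrays. Their mean over 6 cytosolic heat shock genes was 2.27 to 3.70, against 4.28 to 7.04. Their mean over 8 skeletal muscle genes was 1.47 to 7.37, against -4.74 to 5.93, where HF5 at Week 12 was the highest of the others. Other marker lists differed too. The median was lower on the 6 arrays for plasma cells (-2.96 against -1.15) and epithelium (-5.22 against -3.63) and higher for adipocytes (5.485 against 4.33), with ranges that overlapped.

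On these 6 arrays Hspa5, the main chaperone of the endoplasmic reticulum, had levels from 4.24 to 5.64 (median 4.53), against 5.04 to 7.30 (median 6.10) on the others. Ddit3 ran from -1.14 to 0.43 (median -0.21) on them, against -0.45 to 2.08 (median 0.99). Dnajb9, an endoplasmic reticulum partner of Hspa5, ran from -0.29 to 0.75 (median 0.37), against 0.37 to 1.89 (median 1.04). The medians of these 3 genes were thus lower on the 6 arrays, although the ranges overlapped. So were those of Atf4 (0.93 against 1.73), Herpud1 (2.44 against 3.18), Trib3 (-0.61 against -0.18) and Xbp1 (1.01 against 1.26). Chac1 (-0.77 against -1.04) and Asns (4.78 against 3.28) had the opposite order of medians, for Asns with 4 of the 6 arrays above every other array and the other 2 below every other array. These sets of arrays were seen in the data and are not groups of the study, so no test was made between them. In bulk tissue, fewer cells of a type and less RNA per cell cannot be told apart.

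**Figure D1:**
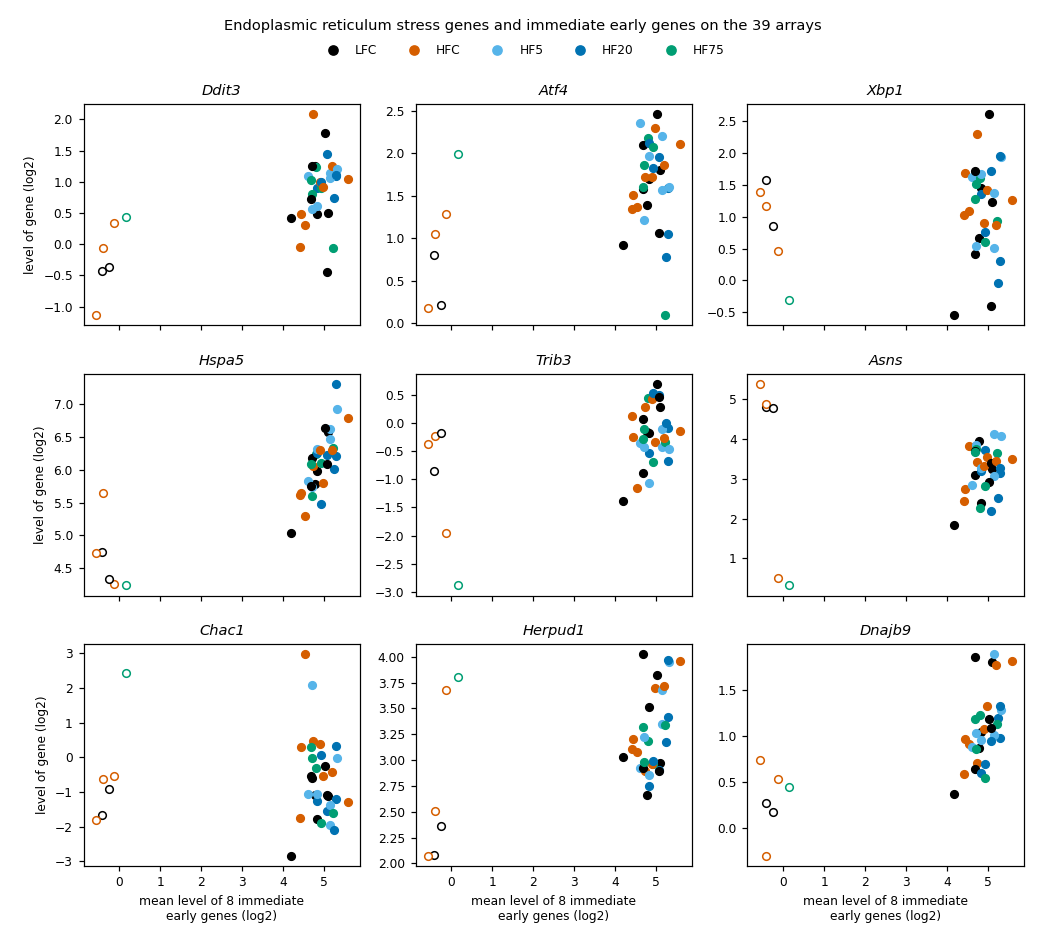
Level of each endoplasmic reticulum stress gene (y axis, log2, 1 panel per gene, brightest probe) against the mean level of 8 immediate early genes (x axis, log2) on the 39 arrays. Colours mark the diets and open circles the 6 arrays below 0.16 on the x axis, on which Hspa5 lay between 4.24 and 5.64.

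The first comparison asked whether the high-fat diet changed the stress response. Over the 10 time points with both diets, no member passed the test between HFC and LFC, and the largest mean difference was that of Chac1. In limma 0 of 9 members and 0 of 19873 genes tested (0%) had an adjusted p under 0.05, and 0 of 9 had an unadjusted p under 0.05, where 5.86% of all genes did. An unmoderated test gave 0 of 9 at both thresholds. The differences of the 9 members had a median of 0.10, and those of all genes tested had a median of -0.035. Without Week 12, whose LFC array was low in immediate early genes, the median of the members was -0.046, and without all the arrays low in these genes it was 0.0047. With the arrays low in immediate early genes left out together with their time points, and with those high in skeletal muscle genes left out likewise, the adjusted and unadjusted counts were again 0 of 9.

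**Figure D2:**
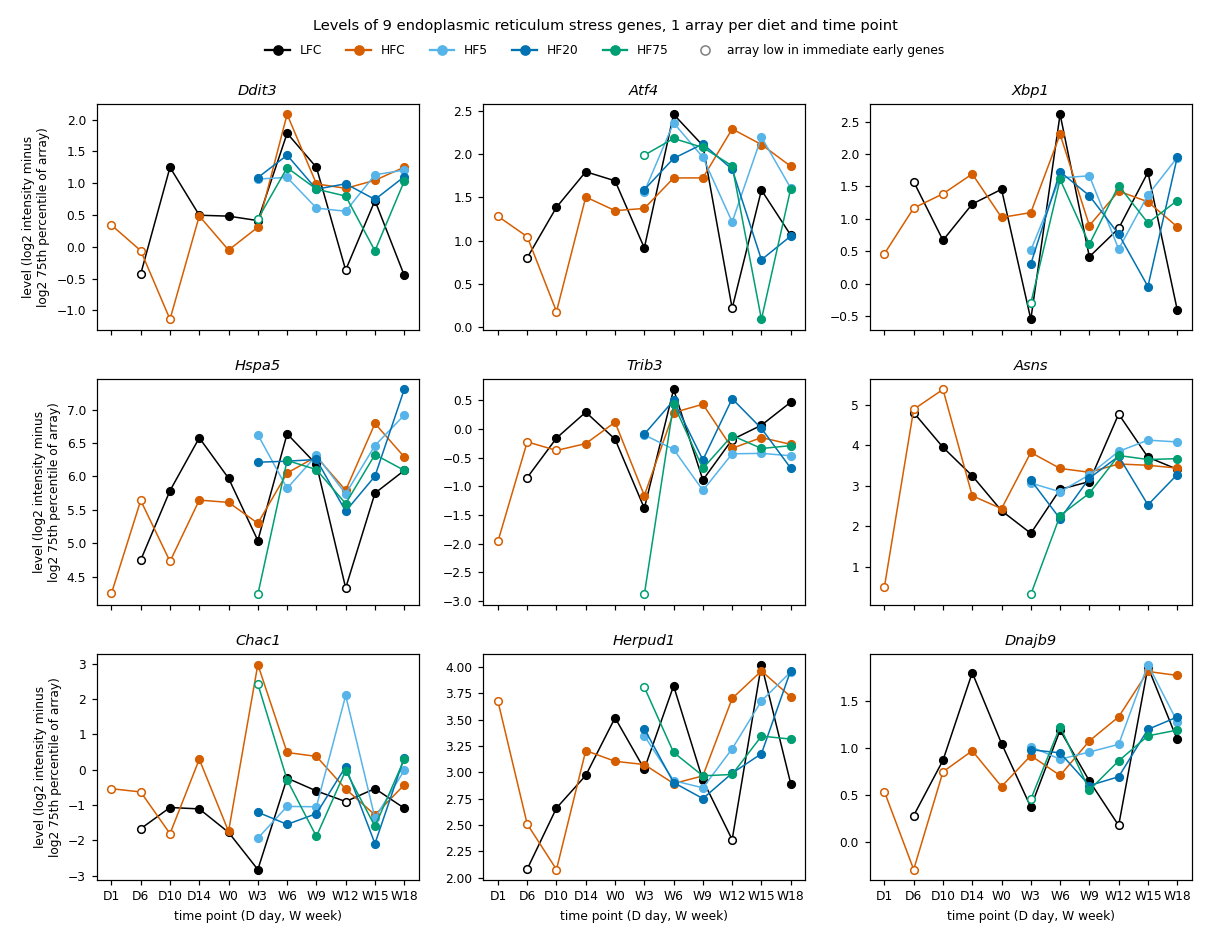
Level of each gene (y axis, log2 intensity minus log2 75th percentile of the array) on every array, by time point (x axis, D day, W week) and diet (colour), with 1 array per point and no error bar. Open circles are the 6 arrays low in immediate early genes. Ddit3 and Xbp1 had their highest levels in both LFC and HFC at Week 6.

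The transcription factors of the response came first. Atf4, which the phosphorylation of eIF2alpha brings into translation, ran from 0.18 at Day 10 to 2.29 at Week 12 (median 1.51) in HFC and from 0.22 at Week 12 to 2.46 at Week 6 (median 1.49) in LFC. These ranges overlapped nearly whole, and both minima were on arrays low in immediate early genes. The difference between HFC and LFC was 0.11 (SE 0.28, 95% interval -0.50 to 0.73, limma adjusted p = 0.946), and HFC was higher at 5 of 10 time points. Ddit3, which promotes cell death under prolonged stress, ran from -1.14 at Day 10 to 2.08 at Week 6 (median 0.48) in HFC and from -0.45 at Week 18 to 1.79 at Week 6 (median 0.49) in LFC. Both diets were highest at Week 6, and HFC was higher at 5 of 10 time points, by 1.70 at Week 18 and by 1.29 at Week 12, with a difference of -2.39 at Day 10. The LFC array of Week 12 and the HFC array of Day 10 were low in immediate early genes. The mean difference of Ddit3 was 0.067 (SE 0.33, 95% interval -0.65 to 0.78, limma adjusted p = 0.974).

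Xbp1 ran from 0.46 at Day 1 to 2.31 at Week 6 (median 1.17) in HFC and from -0.55 at Week 3 to 2.61 at Week 6 (median 1.04) in LFC, so the LFC arrays reached both lower and higher than those of HFC. HFC was higher at 6 of 10 time points, from -0.45 at Week 15 to 1.65 at Week 3, and the mean difference was 0.36 (SE 0.24, 95% interval -0.17 to 0.88, limma adjusted p = 0.817), or 0.21 without Week 3. The 3 transcription factors thus moved from time point to time point by more than their mean differences between the diets.

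Chac1 had the largest difference of the 9 genes, which still did not pass. Chac1, which degrades glutathione and is induced by Atf4, ran from -1.82 at Day 10 to 2.97 at Week 3 (median -0.54) in HFC and from -2.83 at Week 3 to -0.24 at Week 6 (median -1.08) in LFC. The Week 3 arrays were the highest of HFC and the lowest of LFC, a difference of 5.80. HFC was higher at 8 of 10 time points, with a median difference of 0.69 and a mean of 0.95 (SE 0.52, 95% interval -0.19 to 2.09, limma adjusted p = 0.803), or 1.93-fold (95% interval 0.875 to 4.27). Without Week 3 the mean was 0.41. The LFC array of Week 3 also had the highest mean over the lymphocyte markers (1.81, against -4.76 for HFC at Week 3). Over the 33 arrays not low in immediate early genes, Chac1 had r = 0.63 (permutation p = 6e-05, adjusted 0.00297) and rho = 0.64 (permutation p = 0.000140, adjusted 0.00462), with r = 0.62 without the 2 arrays farthest from the median, for its relation with the mean of the 8 adipocyte genes. With the lymphocyte mean it had r = -0.55 (permutation p = 0.00116, adjusted 0.0230) and rho = -0.48 (permutation p = 0.00503, adjusted 0.0553), with r = -0.43 without the 2 arrays farthest from the median. These p-values were adjusted over 99 relations of 9 members with 11 marker lists. The permutations treated the 33 arrays as independent, although arrays of a time point mostly shared a scan day. No value was taken within time points. The part of adipocytes and lymphocytes in the difference was not tested.

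Asns, the enzyme that makes asparagine, ran from 0.51 at Day 1 to 5.37 at Day 10 (median 3.43) in HFC and from 1.83 at Week 3 to 4.80 at Day 6 (median 3.32) in LFC. The levels of the 4 highest arrays all came from arrays low in immediate early genes (HFC at Day 6 and Day 10, LFC at Day 6 and Week 12), as did the lowest HFC value. HFC was higher at 7 of 10 time points and the mean difference was 0.24 (SE 0.28, 95% interval -0.37 to 0.85, limma adjusted p = 0.876). Without Week 3 the Asns mean was 0.046, without Day 10 it was 0.11 and without Week 12 it was 0.40. Trib3, a pseudokinase that binds Akt and restrains insulin signalling, ran from -1.96 at Day 1 to 0.43 at Week 9 (median -0.26) in HFC and from -1.38 at Week 3 to 0.68 at Week 6 (median -0.17) in LFC by its brighter probe. The difference between the diets was 0.019 (SE 0.21, 95% interval -0.44 to 0.47, limma adjusted p = 0.990), with HFC higher at 4 of 10 time points. The dimmer Trib3 probe gave 0.21 and 6 of 10. The difference of Trib3 was thus close to 0 by the brighter probe, and the probes did not have the same count of time points.

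The chaperones and the degradation factor also overlapped between the diets. Hspa5 ran from 4.25 at Day 1 to 6.79 at Week 15 (median 5.65) in HFC and from 4.33 at Week 12 to 6.64 at Week 6 (median 5.88) in LFC, and both minima were on arrays low in immediate early genes. The difference was 0.10 (SE 0.26, 95% interval -0.47 to 0.68, limma adjusted p = 0.947), with HFC higher at 6 of 10 time points. Herpud1, which helps to pull misfolded proteins out of the endoplasmic reticulum, ran from 2.08 at Day 10 to 3.96 at Week 15 (median 3.11) in HFC and from 2.08 at Day 6 to 4.02 at Week 15 (median 2.95) in LFC. Its difference was 0.093 (SE 0.22, 95% interval -0.39 to 0.58, limma adjusted p = 0.944), again with HFC higher at 6 of 10. Dnajb9 ran from -0.29 at Day 6 to 1.82 at Week 15 (median 0.92) in HFC and from 0.18 at Week 12 to 1.86 at Week 15 (median 0.96) in LFC by its brightest probe. The difference was 0.030 (SE 0.22, 95% interval -0.44 to 0.50, limma adjusted p = 0.984), and HFC was higher at 4 of 10 time points by this probe, 4 of 10 by the second and 6 of 10 by the dimmest.

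LFC and HFC shared a scan day at 8 of the 10 time points. Over these 8 the mean differences were 1.01 for Chac1, 0.44 for Asns and 0.42 for Xbp1. They were -0.15 for Atf4, -0.12 for Ddit3, -0.16 for Hspa5, -0.11 for Herpud1, -0.036 for Dnajb9 and -0.035 for Trib3. Of the 9 members, 6 thus had the opposite sign of the mean over all 10 time points, from which Day 6 and Week 12 had been dropped. The intervals over 10 time points include 0 for all 9 members and reach a 2-fold difference in at least one direction only for Chac1.

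**Figure D3:**
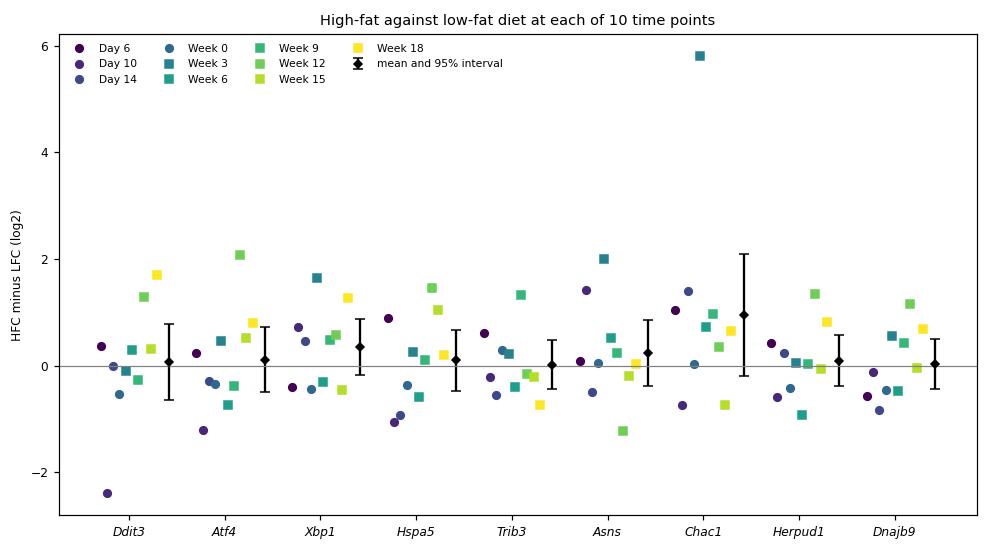
Difference in level between HFC and LFC (y axis, log2) at each of 10 time points (coloured points, circles for Day 6 to Week 0 and squares for Week 3 to Week 18) for each gene, with the mean and its 95% interval from limma in black. The interval of every gene includes 0, and the highest point is Chac1 at Week 3 (5.80).

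The second question was whether the diet difference was the same early (Day 6 to Week 0, 4 time points) and late (Week 3 to Week 18, 6 time points). In limma 0 of 9 members passed (0% of 19873 genes), and 1 of 9, Dnajb9, had an unadjusted p under 0.05, where 1.89% of genes did. The unmoderated test gave 0 and 1. HFC minus LFC of Dnajb9 was -0.57 at Day 6, -0.12 at Day 10, -0.83 at Day 14 and -0.46 at Week 0. Later it was 0.55 at Week 3, -0.48 at Week 6, 0.43 at Week 9, 1.16 at Week 12, -0.048 at Week 15 and 0.68 at Week 18. The HFC array was lower than the LFC array at all 4 early time points and higher at 4 of 6 late ones, and of the late differences that of Week 6 lay within the early range. The late difference exceeded the early one by 0.88 (95% interval 0.037 to 1.72, limma p = 0.0421, adjusted p = 1). The value was 0.28 by the second Dnajb9 probe and 0.50 by the dimmest. It was 0.87 (limma p = 0.108) by the first without the arrays low in immediate early genes. These were left out together with Day 6, Day 10 and Week 12, so the early side was then Day 14 and Week 0 only.

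The other members had late minus early values of 1.18 (95% interval -0.14 to 2.51) for Ddit3, 0.86 (95% interval -0.35 to 2.06) for Atf4 and 0.45 (95% interval -0.64 to 1.54) for Xbp1. Among the targets of Atf4 the values were 0.86 (95% interval -1.53 to 3.26) for Chac1, -0.033 (95% interval -1.02 to 0.96) for Trib3 and -0.043 (95% interval -1.37 to 1.28) for Asns. Hspa5 had 0.78 (95% interval -0.35 to 1.91) and Herpud1 had 0.29 (95% interval -0.73 to 1.32). The median of the 9 members was 0.78, against -0.011 for all genes tested, and it was 0.33 without Week 3. Chac1 had -0.037 and Xbp1 0.23 without Week 3, and Herpud1 had 0.068 without Week 12. Without the arrays low in immediate early genes, with Day 14 and Week 0 as the only early time points, the value was 0.66 for Ddit3, 0.45 for Atf4 and 0.73 for Asns. The adjusted p was 1 for all 9 members.

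Within Week 3 to Week 18 alone, in the fit of all 5 diets, 0 of 9 members passed for HFC against LFC in limma (0% of 21087 genes). Without adjustment 0 of 9 had a p under 0.05, where 5.06% of genes did, and 1 of 9 (Dnajb9) in the unmoderated test. The median of the members was 0.42, against -0.055 for all genes, and it was 0.23 without Week 12 and 0.26 without the arrays low in immediate early genes. The members with the widest gaps were Chac1 at 1.30 (95% interval -0.19 to 2.78), Ddit3 at 0.54 (95% interval -0.044 to 1.12) and Xbp1 at 0.54 (95% interval -0.24 to 1.32). Dnajb9 had 0.38 (95% interval -0.032 to 0.79), Hspa5 0.42 (95% interval -0.22 to 1.05) and Atf4 0.46 (95% interval -0.23 to 1.15). Trib3, Asns and Herpud1 lay between 0.0059 and 0.22. Without Week 3 Chac1 had 0.39 and Xbp1 0.31, and without Week 18 Ddit3 had 0.31. The mean Ddit3 level over these weeks was 0.56 ± 0.88 in LFC, 0.72 ± 0.47 in HF75, 0.94 ± 0.28 in HF5, 1.04 ± 0.23 in HF20 and 1.10 ± 0.58 in HFC (SD, n = 6 arrays each). The steps between neighbours in that order were smaller than the SD of either, and with HF5 and HF20 exchanged at Week 12 HF5 lay above HF20. Without the LFC array of Week 12 and the HF75 array of Week 3, both low in immediate early genes, the difference of Ddit3 was 0.38, that of Atf4 0.20, that of Hspa5 0.25, that of Dnajb9 0.26, that of Asns 0.44, that of Herpud1 0.055 and that of Trib3 -0.023, while Chac1 had 1.14 and Xbp1 0.57. Over the 5 weeks in which LFC and HFC shared a scan day, Atf4 had 0.13, Hspa5 0.21, Ddit3 0.39, Dnajb9 0.23 and Herpud1 -0.016.

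A further question was whether KAL-1, added to the high-fat diet, changed the stress response. No member passed at any dose, and the 3 comparisons share the 6 HFC arrays of Week 3 to Week 18. In limma 0 of 9 members and 0% of 21087 genes passed for each of HF5, HF20 and HF75 against HFC. The unadjusted counts were 0 of 9 at every dose, where 1.36% of genes passed for HF5, 4.22% for HF20 and 5.02% for HF75, and the unmoderated test gave 0, 0 and 1 (Dnajb9 for HF75). The median difference of the members was -0.057 for HF5, -0.29 for HF20 and -0.37 for HF75, against 0.0018, 0.051 and 0.0018 for all genes tested. The median was -0.026 for HF5 without Week 12, -0.12 for HF5 without Week 18 and -0.087 for HF20 without Week 15.

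Asns in HF75 showed the widest gap relative to its error in the fit of 5 diets, which is pooled over the diets. Its 6 weekly differences to HFC had an SD of 1.45 around a mean of -0.77. Those of Dnajb9 by its brightest probe had an SD of 0.44 around a mean of -0.37. The levels of Asns were 0.32 at Week 3, 2.27 at Week 6, 2.82 at Week 9, 3.74 at Week 12, 3.65 at Week 15 and 3.67 at Week 18 in HF75, and 3.82 at Week 3, 3.43 at Week 6, 3.33 at Week 9, 3.54 at Week 12, 3.50 at Week 15 and 3.43 at Week 18 in HFC. The HF75 array of Week 3, which was low in immediate early genes and had the highest skeletal muscle mean of all arrays (7.37), stood far below the others, and from Week 12 on the 2 diets were close. HF75 minus HFC was -3.50 at Week 3 and the mean difference was -0.77 (SE 0.38, 95% interval -1.55 to 0.020, limma adjusted p = 0.866). Without the arrays low in immediate early genes it was -0.34 (limma p = 0.239), and without Week 3 it was -0.22. In HF20 the Asns difference was -0.50 (95% interval -1.29 to 0.28), with HF20 lower at 5 of 6 weeks, and in HF5 it was 0.030 (95% interval -0.75 to 0.82).

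Dnajb9 had lower levels in HF75 than in HFC at 5 of 6 weeks by each of its 3 probes. By the brightest probe HF75 minus HFC was -0.46 at Week 3, 0.52 at Week 6, -0.52 at Week 9, -0.47 at Week 12, -0.68 at Week 15 and -0.58 at Week 18. By this probe Week 6 was the exception, the week whose HF75 and HFC arrays were scanned on different days, and by the dimmest it was Week 9 (0.073), where they shared a day. The mean was -0.37 (SE 0.20, 95% interval -0.78 to 0.045, limma adjusted p = 0.866). Over the weeks with a shared scan day it was -0.54 ± 0.092 (SD, n = 5), and the second and the dimmest probe had -0.58 ± 0.35 and -0.35 ± 0.27 there. Over all 6 weeks these probes gave -0.42 and -0.35. In HF20 the difference was -0.31 (95% interval -0.72 to 0.10) and in HF5 -0.093 (95% interval -0.51 to 0.32).

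Ddit3 and Hspa5 were also lower in HF75 than in HFC at 5 of 6 weeks. For Ddit3 the differences ran from -1.11 to 0.13, with a mean of -0.37 (95% interval -0.96 to 0.21), or -0.23 without Week 15, and for Hspa5 from -1.06 to 0.19, with a mean of -0.32 (95% interval -0.95 to 0.31). The largest Hspa5 gap was at Week 3, and without the arrays low in immediate early genes the mean for Hspa5 was -0.082. At the lower doses Hspa5 had 0.23 (95% interval -0.41 to 0.86) in HF5 and 0.16 (95% interval -0.47 to 0.79) in HF20. Without Week 3 these were 0.0060 and 0.0086, and the HF20 value was -0.16 under quantile normalization, -0.12 under median scaling and -0.45 with normexp background correction. Herpud1 had mean differences of -0.057, -0.19 and -0.12 in HF5, HF20 and HF75, and the HF20 value was -0.065 without Week 15 and -0.081 without Week 12. With normexp, which moved the median of all genes from 0.051 to 0.36 for HF20, the Herpud1 value for HF20 was -0.79 (limma adjusted p = 0.0472, the lowest of a range up to 1.000 over the alternatives), and 8080 of 21087 genes passed under that setting.

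Chac1 had the widest spread. HF5 minus HFC ran from -4.91 to 2.65, HF20 minus HFC from -4.18 to 0.77 and HF75 minus HFC from -2.27 to 0.72. The lowest values for HF5 and HF20 were at Week 3, where the HFC array stood at 2.97, and the means were -0.82 (95% interval -2.30 to 0.67), -1.21 (95% interval -2.69 to 0.28) and -0.45 (95% interval -1.93 to 1.04). Without Week 3 the HF5 mean was 0.0032 and the HF20 mean -0.61, and without Week 9 the HF75 mean was -0.081. The highest HF5 value came from the Week 12 array, and with HF5 and HF20 exchanged at that week it belonged to HF20 and the means were -1.15 for HF5 and -0.87 for HF20. Atf4 had means of -0.029, -0.29 and -0.21 in HF5, HF20 and HF75, Xbp1 of -0.035, -0.30 and -0.37, and Trib3 of -0.28, 0.15 and -0.45. All their intervals included 0. Without Week 3 the HF75 mean was -0.16 for Xbp1 and -0.19 for Trib3. Without Week 15 the HF20 mean was -0.10 for Xbp1 and -0.087 for Atf4, and the HF75 mean of Atf4 was 0.15. Without Week 9 the HF5 mean of Trib3 was -0.030. With HF5 and HF20 exchanged at Week 12, 0 of 9 members passed at any dose. A p that misses the threshold does not show that the doses act like HFC alone: the intervals for HF75 allow, for example, a fall of Asns to 0.342 of its HFC intensity and of Ddit3 to 0.515.

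The mean levels over Week 3 to Week 18 place the 5 diets in an order for each member (SD, n = 6 arrays each). In rising order Atf4 had 1.39 ± 0.82 in LFC, 1.55 ± 0.53 in HF20, 1.63 ± 0.78 in HF75, 1.82 ± 0.43 in HF5 and 1.85 ± 0.32 in HFC. Xbp1 had 0.77 ± 1.23 in LFC, 0.94 ± 0.71 in HF75, 1.01 ± 0.80 in HF20, 1.28 ± 0.61 in HF5 and 1.31 ± 0.53 in HFC. LFC was lowest and HFC highest for Atf4 and Xbp1, as for Ddit3, but the order changed with 1 week. Without Week 12, whose LFC array was low in immediate early genes, Atf4 was lowest in HF20 and had 1.59 in HF75, 1.62 in LFC, 1.76 in HFC and 1.94 in HF5. Without that week Ddit3 had 0.71 in HF75 and 0.74 in LFC, and Xbp1 had 1.29 in HFC and 1.42 in HF5. With HF5 and HF20 exchanged at Week 12, HF5 minus HFC was 0.073 for Atf4 and 0.0037 for Xbp1, so that HF5 was then the highest of both. Among the Atf4 targets, Chac1 had -1.04 ± 0.93 in LFC, -0.95 ± 0.95 in HF20, -0.56 ± 1.44 in HF5, -0.19 ± 1.55 in HF75 and 0.26 ± 1.48 in HFC, and with that exchange HF5 lay below HF20. Without Week 3 the Chac1 means were -0.90 in HF20, -0.71 in HF75, -0.68 in LFC, -0.28 in HFC and -0.28 in HF5. Asns had 2.74 ± 1.32 in HF75, 3.01 ± 0.56 in HF20, 3.29 ± 0.97 in LFC, 3.51 ± 0.17 in HFC and 3.54 ± 0.55 in HF5. Trib3 had -0.65 ± 1.15 in HF75, -0.48 ± 0.32 in HF5, -0.21 ± 0.80 in LFC, -0.20 ± 0.56 in HFC and -0.050 ± 0.50 in HF20, and with that exchange HF20 minus HFC of Trib3 was -0.0066. HF75 was lowest for Asns and Trib3, where its Week 3 array widens the SD, and without Week 3 the HF75 mean was 3.23 for Asns and -0.20 for Trib3. Of the genes of the folding machinery, Hspa5 had 5.67 ± 0.84 in LFC, 5.77 ± 0.79 in HF75, 6.09 ± 0.51 in HFC, 6.25 ± 0.59 in HF20 and 6.31 ± 0.46 in HF5, and with that exchange HF20 lay above HF5. Herpud1 had 3.18 ± 0.63 in LFC, 3.20 ± 0.44 in HF20, 3.27 ± 0.31 in HF75, 3.33 ± 0.43 in HF5 and 3.39 ± 0.46 in HFC. Dnajb9 had 0.89 ± 0.62 in LFC, 0.90 ± 0.34 in HF75, 0.96 ± 0.28 in HF20, 1.18 ± 0.37 in HF5 and 1.27 ± 0.45 in HFC. LFC was the lowest of these 3, but not without Week 12, when Hspa5 had 5.94 in LFC and 5.80 in HF75, Herpud1 3.34 in LFC and 3.24 in HF20, and Dnajb9 1.03 in LFC, 1.01 in HF20 and 0.91 in HF75. For all 9 members the neighbours in the order differed by less than the smaller of their SDs, except LFC and HFC for Asns, where the SD of HFC was 0.17.

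**Figure D4:**
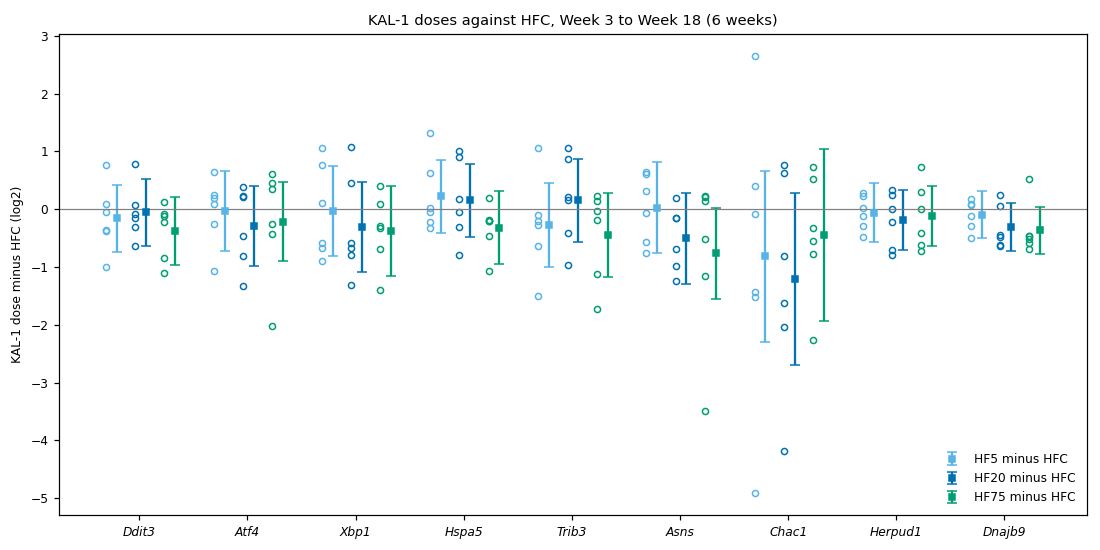
Difference in level between each KAL-1 dose and HFC (y axis, log2) for each gene over Week 3 to Week 18, with open circles for the 6 weeks and squares with bars for the mean and its 95% interval from limma. All intervals include 0, and the lowest points are Chac1 and Asns at Week 3.

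Among genes as a whole the weeks gave more calls than the diets. Among the 6 weeks from Week 3 to Week 18, with the diet in the model, 1 of 9 members (Dnajb9) passed in limma at an adjusted p under 0.05, where 12% of 21087 genes passed, and 5 of 9 (Xbp1, Hspa5, Trib3, Asns and Dnajb9) had an unadjusted p under 0.05, where 35% of genes did. The unmoderated test gave the same counts of members. Without Week 6, 35 of 21104 genes passed in limma, and Dnajb9 did not (adjusted p = 0.136). Arrays of a week shared a scan day, except at Week 6 and Week 12, so the week and the scan day cannot be told apart. Dnajb9 levels were 1.86 in LFC, 1.82 in HFC, 1.89 in HF5, 1.20 in HF20 and 1.13 in HF75 at Week 15. They were 1.09 in LFC, 1.77 in HFC, 1.28 in HF5, 1.33 in HF20 and 1.19 in HF75 at Week 18. All 10 arrays of these last weeks thus stood at 1.09 or higher. At Week 3 the levels were 0.37 in LFC, 0.92 in HFC, 1.02 in HF5, 0.98 in HF20 and 0.45 in HF75. At Week 6 they were 1.19 in LFC, 0.71 in HFC, 0.88 in HF5, 0.95 in HF20 and 1.23 in HF75. At Week 9 they were 0.65 in LFC, 1.08 in HFC, 0.96 in HF5, 0.60 in HF20 and 0.55 in HF75, and at Week 12 0.18 in LFC, 1.33 in HFC, 1.04 in HF5, 0.69 in HF20 and 0.86 in HF75. Of the 20 arrays of Week 3 to Week 12, 3 were as high, so the weeks overlapped.

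The mean of Dnajb9 over the 5 diets was 0.75 ± 0.31 at Week 3, 0.99 ± 0.22 at Week 6, 0.77 ± 0.23 at Week 9, 0.82 ± 0.43 at Week 12, 1.58 ± 0.38 at Week 15 and 1.33 ± 0.26 at Week 18 (SD, n = 5 arrays each). The highest and lowest week differed by 0.83 (limma adjusted p = 0.0380). The adjusted p ran from 0.0158 to 0.486 over the alternatives, and was 0.0299 without the arrays low in immediate early genes and 0.0427 without those high in skeletal muscle genes. The other Dnajb9 probes had their highest weekly mean at Week 15 too (-0.19 ± 0.45 and -0.58 ± 0.52), with adjusted p values of 0.397 and 0.206 in limma. At Week 15 the mean of the 8 adipocyte genes was 2.57 to 3.89, against 3.06 to 5.73 at the other weeks, and that of the 8 immediate early genes was 4.67 to 5.57. Over the 33 arrays not low in immediate early genes, Dnajb9 had r = 0.57 (permutation p = 0.000560, adjusted 0.0185) and rho = 0.56 (permutation p = 0.000990, adjusted 0.0163), with r = 0.42 without the 2 arrays farthest from the median, with the immediate early mean. The permutations treated the arrays as independent, and this relation was not taken within time points. The part of adipocytes and of immediate early genes in the result was not tested.

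The other weekly means are given as values, since they did not pass. Xbp1 stood at 1.98 ± 0.46 at Week 6, where all 5 arrays (1.61 to 2.61) lay above all 5 of Week 3 (-0.55 to 1.10), and its adjusted p in limma was 0.0738. Ddit3 was also highest at Week 6, with 1.53 ± 0.40, and lowest at Week 12, with 0.58 ± 0.55 (limma adjusted p = 0.160). Hspa5 ran from 5.39 ± 0.60 at Week 12 to 6.54 ± 0.54 at Week 18 (adjusted p = 0.0652 in limma), and Asns from 2.43 ± 1.38 at Week 3 to 3.92 ± 0.48 at Week 12 (0.0765). Without the LFC array of Week 12 and the HF75 array of Week 3, both low in immediate early genes, Ddit3 had 0.82 at Week 12, 0.72 at Week 3 and 0.72 at Week 15, Hspa5 had 5.65 at Week 12, and Asns had 2.96 at Week 3, 2.73 at Week 6 and 3.71 at Week 12, so the lowest week of Ddit3 and of Asns changed. The brighter Trib3 probe ran from -1.13 ± 1.15 at Week 3 to 0.31 ± 0.40 at Week 6 (0.101). The dimmer Trib3 probe was also lowest at Week 3, with -4.53 ± 0.91, and highest at Week 6, with -2.56 ± 0.39, and in a fit of all probes it passed (limma adjusted p = 0.00932). At Week 15 the probes went apart, since the dimmer one stood at -4.19 ± 0.55, its second lowest week, and the brighter one at -0.17 ± 0.21. Over the 39 arrays the Trib3 probes had a correlation of 0.57, and those of Dnajb9 had correlations from 0.53 to 0.67. Herpud1, Atf4 and Chac1 had adjusted p values of 0.178, 0.301 and 0.515 in limma.

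The wider pathway was read from 4 lists of other genes. The first list held 12 sensors and eIF2alpha kinases (all 12 tested), another 32 targets of Atf4 and Ddit3 (30 tested for HFC against LFC over 10 time points, 31 over the weeks), a further one 21 chaperones and folding enzymes (20 tested) and the last 22 factors of degradation and translocation (20 tested). For every diet comparison 0 genes of the 4 lists passed in limma, as did 0 of all genes in limma and in the unmoderated test. For HFC against LFC over 10 time points, 2 of the Atf4 and Ddit3 targets had an unadjusted p under 0.05, both higher in HFC, and 0 of the other lists, against 5.86% of all genes. They were Nupr1, a stress-induced chromatin protein, with 0.76 (SE 0.24, limma adjusted p = 0.803, HFC higher at 8 of 10 time points), and Stc2, a secreted glycoprotein, with 1.01 (SE 0.39, adjusted p = 0.803 in limma, 7 of 10). The median differences of the 4 lists lay between 0.11 and 0.18, against -0.035 for all genes.

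The genes of smallest p in the other lists were the eIF2alpha kinase Eif2ak1 (0.47) and the membrane-bound factor Creb3l1 (0.73) among the sensors, the disulfide isomerases Txndc5 (0.42) and P4hb (0.32) among the folding enzymes, and the coat protein Sec24d (0.62) and the mannosidase-like Edem1 (0.49) in the last list. Their adjusted p values in limma lay between 0.803 and 0.815, so none passed between HFC and LFC. For HF75 against HFC, 5 of 20 degradation and translocation factors, 3 of 31 targets of Atf4 and Ddit3 and 1 of 12 sensors had an unadjusted p under 0.05, all lower in HF75, against 5.02% of all genes. Without the HF75 array of Week 3 and the LFC array of Week 12, both low in immediate early genes, these counts were 4, 2 and 0, against 5.57% of all genes. Without Week 3 they were 2, 1 and 1, against 2.7%. The chaperones and folding enzymes had 0 of 20 in all these cases, with a median of -0.26, or -0.16 without both of those arrays. At an unadjusted p under 0.05, the Atf4 and Ddit3 targets had 0 of 31 for HF5 and 1 for HF20, and the degradation and translocation factors had 0 of 20 for HF5 and 2 for HF20, where the other lists had 0. The share of all genes was 1.36% for HF5 and 4.22% for HF20.

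Among the weeks, 5 of 31 targets, 1 of 12 sensors, 2 of 20 folding enzymes and 3 of 20 degradation and translocation factors passed in limma, against 12% of all genes. Without Week 6 these counts were 1, 0, 0 and 0, where 35 of all 21104 genes tested passed. Atf5, a transcription factor related to Atf4, differed by 1.33 between its highest week, Week 9 (5.55), and its lowest, Week 15 (4.22; limma adjusted p = 0.00968). The amino acid transporter Slc38a2 was highest at Week 6 (4.69) and between 2.70 and 3.25 at the other weeks (adjusted p = 0.0105 in limma). Week 6 was likewise the highest week of the chaperone Calr (4.15, against 2.77 to 3.40), the glucosyltransferase Uggt1 (-1.57, against -3.81 to -2.67) and Edem2 (-1.11, against -3.42 to -1.97), and the lowest of the translocon subunit Sec61g (3.72, against 4.29 to 5.13). Their adjusted p values in limma were 0.0126, 0.0223, 0.00925 and 0.00636. Eif2s1, which encodes eIF2alpha, was lowest at Week 18 (-0.45, against 0.61 to 1.27; limma adjusted p = 0.0469). Atf6 did not pass (limma adjusted p = 0.0567).

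Whether the members rise and fall together was read from the 33 arrays not low in immediate early genes, since those 6 stand apart. Of the 36 pairs, 32 had a Pearson correlation above 0, with a median of 0.17 and a range of -0.10 to 0.69. After adjustment over the 36 pairs, 7 passed by Pearson's r and 4 by Spearman's rho in permutation tests of 100000 resamples. At 8 of the 11 time points all arrays were scanned on 1 day (Day 6, Week 6 and Week 12 took 2 days), and arrays are thus not independent, so each value was also taken within time points (32 arrays, each level minus the mean of its time point), where 8 pairs passed and the median was 0.31. Of the 7 pairs that passed by Pearson's r, 4 were among these 8, and the other 4 were Atf4 with Dnajb9, Xbp1 with Herpud1, Xbp1 with Asns and Ddit3 with Herpud1. For scale, the correlation of a member with all 12136 other genes detected on every array had a median between -0.043 and 0.043 over the same 33 arrays. For each member, between 26.2% and 34.2% of those genes had a correlation with it above 0.17, the median of the 36 pairs. The number of pairs of other genes that would pass was not counted.

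Across the 33 arrays the closest pair was Herpud1 and Dnajb9, with r = 0.69 (permutation p = 3e-05, adjusted 0.00108) and rho = 0.69 (permutation p = 3e-05, adjusted 0.00108). It had r = 0.58 within time points (permutation p = 0.00154, adjusted 0.0191) and r = 0.64 without the 2 arrays farthest from the median. Within time points 3 pairs had a higher r, Atf4 with Dnajb9 (0.64, permutation p adjusted 0.0191), Xbp1 with Herpud1 (0.62, adjusted 0.0191) and Asns with Chac1 (0.61, adjusted 0.0436). Hspa5, the chaperone of this class, had r = 0.49 with Dnajb9 and r = 0.46 with Herpud1 (permutation p adjusted 0.0262 and 0.0353). Their rho values were 0.52 and 0.29 (permutation p adjusted 0.0266 and 0.349). Within time points Hspa5 had r = 0.48 with Dnajb9, which did not pass, and r = 0.52 with Herpud1, which did (permutation p adjusted 0.0993 and 0.0364). With the mean of the immediate early genes on these arrays, Hspa5 had r = 0.78 (permutation p = 1e-05, adjusted 0.000990) and rho = 0.75 (permutation p = 1e-05, adjusted 0.000990), with r = 0.72 without the 2 arrays farthest from the median. The p of 1e-05 is the smallest these permutations can give. It treats the 33 arrays as independent, and relations with the immediate early mean were not taken within time points. Dnajb9 passed with the same mean (above), and Herpud1 had r = 0.47 and rho = 0.38 (permutation p adjusted 0.0549 and 0.192). The part of the immediate early genes in the likeness of these 3 members was not tested. On the 6 arrays low in immediate early genes, r was 0.20 for Herpud1 and Dnajb9 and -0.70 for Hspa5 and Dnajb9.

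Next came Ddit3 and Atf4, with r = 0.58 (permutation p = 0.000420, adjusted 0.00756) and rho = 0.52 (permutation p = 0.00222, adjusted 0.0266). It had r = 0.53 within time points (permutation p = 0.00483, adjusted 0.0348) and r = 0.62 without the 2 arrays farthest from the median. On the 6 arrays set apart r was 0.87, in the same direction (exact permutation p = 0.00833, adjusted 0.0750). Another pair was Asns and Chac1, whose promoters both hold the composite element, with r = 0.52 (permutation p = 0.00183, adjusted 0.0220) and rho = 0.49 (permutation p = 0.00452, adjusted 0.0407). It had r = 0.61 within time points (permutation p = 0.00969, adjusted 0.0436) and r = 0.41 without the 2 arrays farthest from the median, but r = -0.77 on the 6 arrays (exact permutation p = 0.0167, adjusted 0.0818). Herpud1 holds the same element and had r = 0.23 with Asns and r = 0.068 with Chac1. Xbp1 had r = 0.50 with Ddit3 and 0.47 with Atf4 (permutation p adjusted 0.0220 and 0.0339). Neither pair passed by rho (0.33 and 0.40, permutation p adjusted 0.264 and 0.120) or within time points (r = 0.47 and 0.36, permutation p adjusted 0.151 and 0.189). The r of Xbp1 with Ddit3 was 0.30 without the 2 arrays farthest from the median of Ddit3. Xbp1 also passed with the mean of the macrophage markers, with r = 0.54 (permutation p = 0.00112, adjusted 0.0230) and rho = 0.60 (permutation p = 0.000390, adjusted 0.00965), with r = 0.53 without the 2 arrays farthest from the median. With this mean Atf4 had r = 0.49 and rho = 0.50 (permutation p adjusted 0.05115 and 0.0401). By rho both genes also passed with the mean of the liver markers, Atf4 at -0.63 and Xbp1 at -0.52 (permutation p adjusted 0.00462 and 0.0304), but not by r. No relation with a marker mean was taken within time points. Trib3 had no pair that passed, with r between -0.055 and 0.23. With the mean of the skeletal muscle genes it had r = -0.47 and rho = -0.55 (permutation p adjusted 0.0549 and 0.0163).

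For each member, the genes of most similar level over the 39 arrays were found among the 12136 other genes detected on all of them. The 3 highest are given, or 2 for Asns, and each is given with its Pearson correlation over 39 arrays and then over the 33 arrays not low in immediate early genes, as a description. For Hspa5 they were LOC100046179 (0.90, 0.76), Gm2326 (0.90, 0.75) and 1200016E24Rik (0.90, 0.74). For Dnajb9 they were AA536743 (0.80, 0.68), Rnf19b (0.78, 0.65) and Zfand2a (0.78, 0.70), and for Herpud1 Nr1d2 (0.83, 0.70), Gdpd1 (0.81, 0.70) and Nfil3 (0.81, 0.70). Nr1d2 and Nfil3 are transcription factors of the circadian clock. The genes nearest to Ddit3 were Gch1 (0.81, 0.68), Snora64 (0.80, 0.69) and Eif6 (0.80, 0.75), those nearest to Atf4 Tnfrsf12a (0.75, 0.59), LOC100046713 (0.72, 0.54) and Lamb2 (0.70, 0.61) and those nearest to Xbp1 Gdap2 (0.83, 0.83), Gm8786 (0.82, 0.81) and Tmem181a (0.81, 0.81). Gch1 makes the cofactor tetrahydrobiopterin and Tnfrsf12a is the receptor of the cytokine Tweak. For Trib3 they were Slc12a7 (0.87, 0.77), Plekhg5 (0.85, 0.83) and Anks1 (0.85, 0.79), for Asns Snx10 (0.88, 0.67) and Sfxn1 (0.83, 0.48) and for Chac1 Cnksr1 (0.70, 0.71), Trp53inp2 (0.69, 0.70) and Mospd1 (0.66, 0.67). The correlations of the genes nearest to Asns differed most when the 6 arrays were left out (0.48 for Sfxn1), and those nearest to Xbp1 and Chac1 moved by less than 0.01.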

How the data were processed

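Total RNA of subcutaneous adipose tissue was labelled with Cy3 and hybridised to 39 Agilent 1-colour mouse arrays of 43803 spots. The intensities were deposited per array as Feature Extraction output (version 10.5.1.1 per the file headers, where the submitters' processing notes list 9.1): the processed signal, background-subtracted and detrended within the array, the mean signal with its local background, and 0 or 1 flags. The authors also deposited a table of log2 ratios of each array to LFC at its time point, used as an alternative for the doses. Its HF5 and HF20 columns of Week 12 match each other's arrays.

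Levels are log2 processed signals minus the log2 75th percentile of the array. Each gene was taken by its probe of highest mean level, and was tested if well above background on at least 10 arrays in the fit of LFC and HFC or 6 in the fit of 5 diets. limma 3.58.1 (R 4.3.3) was fitted over all genes with diet and time point as terms, where the time point stands for the replicate block, since each diet has 1 array per time point. The late minus early contrast used the same arrays. Adjustment was by Benjamini-Hochberg over all genes, with a threshold of 0.05, and the scripts were checked on simulated data. In the fit of LFC and HFC, p-values measure the spread of the diet difference between time points. In the fit of 5 diets they use 1 error per gene, pooled over all 5 diets, so a gene has the same SE at each dose. Correlations used permutation tests of 100000 resamples.

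The members, gene lists and tests were chosen with earlier results of these data known. All members are named, as are the 2 genes of smallest p of each pathway list for HFC against LFC and for the difference among weeks, and the 3 genes of highest correlation with each member, of which 1 is not reported here. The alternatives were normexp with an offset of 50, quantile normalization, median scaling, no filter or a filter on every array, the next probe, the scan day or the slide as a block, no block, an unmoderated test, the deposited ratios and each time point left out. 3 more were chosen after seeing the data: HF5 and HF20 exchanged at Week 12, arrays with a mean of the immediate early genes under 2 left out, and arrays with a mean of the skeletal muscle genes over 3 left out. The arrays that stand apart and the correlations without them were likewise seen in the data first. Promoters are of GRCm38.p6 in RefSeq, while the array annotation uses mm9, so no probe coordinates are given.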

Additional observations from a re-analysis of the deposited data

Results flagged for a closer look

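Of 48 sets of arrays, each of 1 of the 12 probes and 1 of the diets LFC, HF5, HF20 and HF75, 4 (8.33%) held an array whose gap to the nearest other, over the whole range, was above Dixon's 95% critical value (0.625 for 6 arrays). Chance marks about 1 in 20 such sets. All 4 were in HF75. HFC, with 11 arrays, was not examined in this way. Atf4 stood at 0.093 on the HF75 array of Week 15, where the nearest other HF75 array had 1.60 (gap over range 0.723). On the HF75 array of Week 3, which was low in immediate early genes and high in skeletal muscle genes, Hspa5 stood at 4.24 with the nearest at 5.60 (0.650), and the brighter Trib3 probe at -2.88 with the nearest at -0.69 (0.662). The dimmest Dnajb9 probe stood at -1.87 on the HF75 array of Week 6, with the nearest at -1.15 (0.631), while the brightest Dnajb9 probe had its highest HF75 level (1.23) on that array, so the probes of the gene went apart there.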

How the results depend on the processing

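In every setting tried, 0 of 9 members passed in the diet comparisons, except Herpud1 for HF20 with normexp background correction (-0.79, limma adjusted p = 0.0472), where 8080 genes and 1 member passed for HF20 against 0 otherwise. Normexp also moved the median of all genes, by -0.11 over 10 time points, -0.11 late minus early, -0.16 over Week 3 to Week 18, 0.30 for HF20 and 0.21 for HF75. Median scaling moved it by 0.12 late minus early and -0.27 for HF20, and quantile normalization by -0.15 for HF20. Among the weeks the count of genes was 651 with normexp, 758 with median scaling, 1541 with no filter, 1033 with a random block for the slide and 4092 without the arrays low in immediate early genes, and 35 (without Week 6) to 3710 with 1 week left out, with 1079 without Week 9 and 1135 without Week 15. The count of members among the weeks was 0 with normexp, quantile normalization, median scaling, no filter or the slide as a block, 2 with the filter on every array, and 0 to 2 with 1 week left out. The adjusted p of Dnajb9 among the weeks ran from 0.0158 to 0.486 in limma over all settings. Dnajb9 lost its call under the 5 settings with 0 members, with its next probe, and without Week 6, Week 9, Week 15 or Week 18. Xbp1 passed without Week 18, Asns without Week 3, Hspa5 with the filter on every array and Trib3 with its next probe.

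The mean difference of some members changed sign, in every case without passing a test, and the cause was not tested. With the scan day as a block it was over 10 time points -0.12 for Ddit3, -0.15 for Atf4, -0.16 for Hspa5, -0.035 for Trib3, -0.11 for Herpud1 and -0.036 for Dnajb9, late minus early 0.19 for Trib3 and 0.19 for Asns, for HF5 0.14 for Atf4, 0.093 for Xbp1, -0.036 for Asns and 0.021 for Herpud1, and for HF20 0.087 for Ddit3. With normexp background correction it was late minus early 0.026 for Asns, for HF5 -0.10 for Asns, and for HF20 -0.45 for Hspa5. With median scaling it was late minus early 0.092 for Trib3 and 0.082 for Asns, and for HF20 -0.12 for Hspa5 and -0.13 for Trib3. With quantile normalization it was over Week 3 to Week 18 -0.0098 for Trib3, for HF5 -0.018 for Asns, and for HF20 -0.16 for Hspa5. With the slide as a random block it was over Week 3 to Week 18 -0.11 for Trib3, for HF5 0.26 for Xbp1, and for HF20 0.050 for Xbp1. With the next probe of a gene it was for HF5 0.20 for Dnajb9. In the deposited ratios it was for HF5 0.078 for Atf4 and 0.012 for Xbp1. Without the arrays low in immediate early genes it was over 10 time points -0.037 for Hspa5, -0.0092 for Trib3, -0.036 for Herpud1 and -0.023 for Dnajb9, late minus early 0.16 for Trib3 and 0.73 for Asns, and over Week 3 to Week 18 -0.023 for Trib3. Without those high in skeletal muscle genes it was over 10 time points -0.027 for Trib3, late minus early 0.13 for Trib3 and 0.44 for Asns, and for HF5 0.087 for Atf4 and 0.14 for Xbp1 (with either set left out, the early side held Day 14 and Week 0 only). With HF5 and HF20 exchanged at Week 12 it was for HF5 0.073 for Atf4 and 0.0037 for Xbp1, and for HF20 -0.0066 for Trib3. With 1 time point left out, the ranges that crossed 0 were over 10 time points -0.11 to 0.34 for Ddit3, -0.10 to 0.26 for Atf4, -0.048 to 0.23 for Hspa5, -0.13 to 0.10 for Trib3, -0.046 to 0.21 for Herpud1 and -0.096 to 0.13 for Dnajb9, late minus early -0.30 to 0.16 for Trib3, -0.40 to 0.34 for Asns and -0.037 to 1.27 for Chac1, over Week 3 to Week 18 -0.26 to 0.15 for Trib3, -0.13 to 0.51 for Asns and -0.016 to 0.44 for Herpud1, for HF5 -0.34 to 0.011 for Ddit3, -0.16 to 0.18 for Atf4, -0.26 to 0.14 for Xbp1, -0.093 to 0.19 for Asns, -1.51 to 0.0032 for Chac1 and -0.12 to 0.028 for Herpud1, for HF20 -0.22 to 0.063 for Ddit3, -0.011 to 0.35 for Hspa5 and -0.030 to 0.38 for Trib3, and for HF75 -0.38 to 0.15 for Atf4 and -0.29 to 0.0019 for Herpud1.

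Without the block, that is with time points not paired, 0 of 9 members and 0 genes passed in the 6 diet comparisons in limma, and the members had the same means, such as 0.95 for Chac1 over 10 time points. The slide as a random block could not be fitted to the 20 arrays of LFC and HFC, since nearly every slide held 1 array, and the deposited ratios give the dose comparisons only. The number of arrays, and not sequencing depth, limits precision here: a difference within 1 time point has no error.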
